A study of Rattus norvegicus with 36 samples.

Results

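Keratins, desmosomal proteins and proteins of the cornified envelope were followed in rat vocal fold (VF) mucosa after injury. The members were taken by gene symbol: keratins (Krt), desmogleins (Dsg), desmocollins (Dsc), plakophilins (Pkp) and small proline-rich proteins (Sprr), together with Dsp, Jup, Ivl, Loricrin, Evpl, Ppl, Tgm1, Tgm3 and Sfn. This gave 46 genes, read by 52 probe sets, among 14217 genes and 31042 probe sets measured. Each gene was represented by 1 probe set, and 4 members had more than 1 (Dsg1, Dsp, Krt6c and Pkp4). A further 2 probe sets annotated to several hair keratins at once were left out.

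Male Fischer 344 rats aged 120 days received a bilateral mucosal stripping injury and were harvested at 3, 14 or 60 days post-injury (PI), at 123, 134 or 180 days of age. Uninjured rats of the same ages served as controls. Each mucosa array was hybridised with RNA pooled from the VF mucosae of 4 rats, so that the spread between arrays is a spread between pools, and the microdissected tissue included some muscle. There were 5 PI and 3 control arrays at 3 days, 5 and 3 at 14 days, and 5 and 2 at 60 days. These are the numbers of the labels, and the paper's methods give fewer PI and more control arrays at 60 days. A further 13 arrays held cultured VF fibroblasts (naive, from scar, and from scar after gp46 or scramble siRNA), each culture from 1 rat. All values are log2 signals from robust multi-array average (RMA) processing of a rat whole-genome oligonucleotide array, so 1 unit is a doubling.

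Keratins are the intermediate filaments of epithelial cells and assemble from 1 type I and 1 type II chain. Basal cells of stratified epithelium carry Krt5 with Krt14 or Krt15, and cells leaving the basal layer exchange these for Krt4 with Krt13 in soft, non-keratinized linings or for Krt1 with Krt10 in cornified ones. Desmosomes bolt neighbouring cells together through desmoglein and desmocollin cadherins, and plakophilins, plakoglobin (Jup) and desmoplakin (Dsp) anchor those cadherins to the keratin network. In the outermost layers transglutaminases cross-link involucrin (Ivl), loricrin and the small proline-rich proteins into an envelope beneath the plasma membrane, on a scaffold laid down by envoplakin (Evpl) and periplakin (Ppl). The edge of the VF is lined by non-keratinized stratified squamous epithelium, with ciliated airway epithelium next to it.

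Some arrays stood apart before any comparison. Replicate 5 of the 3-day PI group was the lowest of its group for 33 of the 46 members, and replicate 3 of the 14-day controls was the lowest of its group for 34. Replicate 2 of the 3-day controls was the highest of 3 for 31 members, and replicate 3 of the 60-day PI group was the highest of 5 for 29. Such counts were not made over all genes, so whether these arrays stood apart beyond the members was not tested. Over 9 markers of epithelium in general (of 11 listed), the mean signal per array was 10.61 to 10.79 at 3 days PI, against 10.64 to 10.87 in the 3-day controls. It was 10.78 to 11.01 against 10.62 to 10.85 at 14 days, and 10.61 to 11.18 against 11.1 in both controls at 60 days. Of the 9, 0 passed the test at any time point. Over all genes 26.5%, 3.07% and 0.0492% passed at 3, 14 and 60 days, so 0 of 9 says little at the later times. In whole tissue, fewer cells of a type and less RNA per cell cannot be told apart.

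The fibroblast arrays, normalised together with the mucosa arrays, gave the signal of each member in cultured cells that are not epithelial. Which cells of the mucosa gave a signal above theirs was not tested. In 22 of 46 members every one of the 23 mucosa arrays lay above every one of the 13 fibroblast arrays, in 20 the ranges overlapped, and in 4 every mucosa array lay below every fibroblast array (Krt25, Krt86, Krt90 and Pkp2). For these counts and those below, the shares over all genes were not computed, so they describe the members only. The mean in mucosa was over 4 log2 above the fibroblast median for 17 members, among them Krt4 (12.80 against a fibroblast median of 5.77), Krt13 (12.57 against 5.72), Krt5 (13.34 against 6.31) and Krt19 (12.56 against 4.24). Krt7 was the clearest exception among the abundant keratins, with a mucosa range of 9.75 to 12.20 and a fibroblast range of 8.41 to 11.77. The naive cultures (8.41 to 9.09) lay below every mucosa array. The overlap came from cultures of scar origin (10.32 to 11.77 without siRNA). Pkp1 (11.40 in mucosa against a fibroblast median of 11.24) likewise overlapped between the 2 sources, whereas Pkp2 (8.80 against 9.59) was higher in fibroblasts. For 22 members, including Ivl, Krt1, Krt20, Sprr1b and all 5 hair and inner root sheath keratins, the mean in mucosa was less than 1 log2 above the fibroblast median, or was below it.

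**Figure D1:**
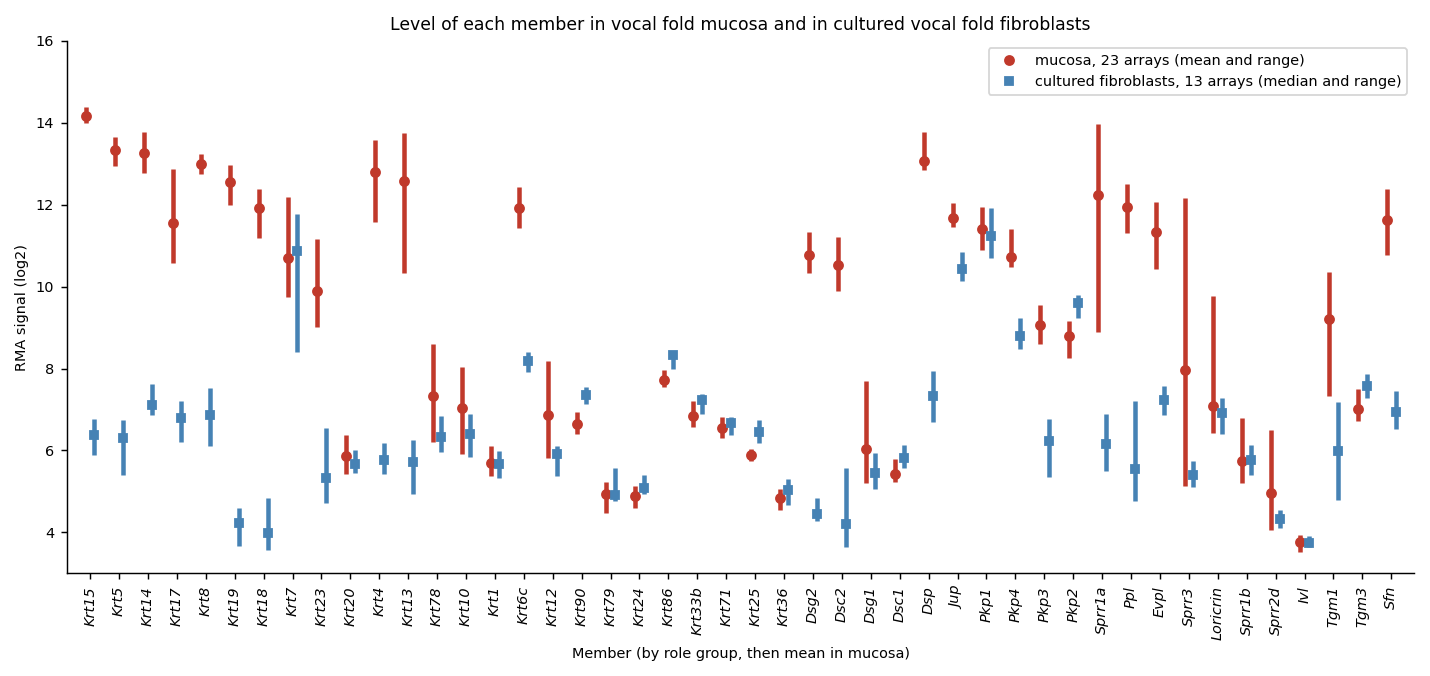
Mean and range of each member over the 23 mucosa arrays (circles) and median and range over the 13 cultured fibroblast arrays (squares), in log2 RMA signal, ordered by role group. Probe sets differ in their response, so levels can be read between the 2 sources for 1 gene but not between genes; Krt15, Krt5, Krt14, Krt4, Krt13 and Krt19 lie far above the fibroblast range, and Krt7, Pkp1 and Pkp2 do not.

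At 3 days PI, Krt7, Krt17, Krt20, Krt14 and Krt5 were higher and Tgm1, Krt78, Krt4, Ppl and Pkp2 were lower than in controls. With limma across all genes and a Benjamini-Hochberg adjusted p under 0.05, 10 of 46 members (21.7%) passed the test, 5 higher and 5 lower. Over all 14217 genes 26.5% passed, 14.5% higher and 12.0% lower, so the share among members was below that among all genes. The split moved with single arrays. It was 2 higher and 4 lower without control replicate 1, and 9 and 2 without control replicate 2. It was 2 and 5 without control replicate 3, and 8 and 5 without PI replicate 5. The share of all genes called in these 4 fits was 18.8%, 25.2%, 19.2% and 26.8%. Krt7 and Krt20 were called higher in each of these 4 fits, and no member was called lower in all of them. The median log2 fold change over the 46 members was 0.02, against 0.01 over all genes. Of 7 skeletal muscle markers 6 fell at 3 days (the log2 fold changes of Myh2, Mb and Pygm were -1.46, -1.23 and -1.12), with a mean signal per array of 11.83 to 12.66 in PI and 12.73 to 13.36 in control mucosa, and of 7 fibroblast markers 4 rose (12.77 to 12.92 in PI and 12.17 to 12.26 in control mucosa). The fibroblast markers that rose most were the collagen genes Col1a1, Col1a2 and Col3a1, and Dcn, Pdgfra and Pdgfrb did not pass the test. Of 8 leukocyte markers 2 rose, S100a8 and S100a9, and the list median log2 fold change was -0.12. Ptprc, Cd68, Csf1r, Itgam, Cd3e and Cd79b did not pass. The mean over all 8 was 8.25 to 9.47 in PI and 7.96 to 9.01 in control mucosa. Of 5 endothelial markers 2 rose (9.14 to 9.30 in PI and 8.68 to 9.01 in control mucosa). What moved these markers, and their part in the member results, was not tested.

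**Figure D2:**
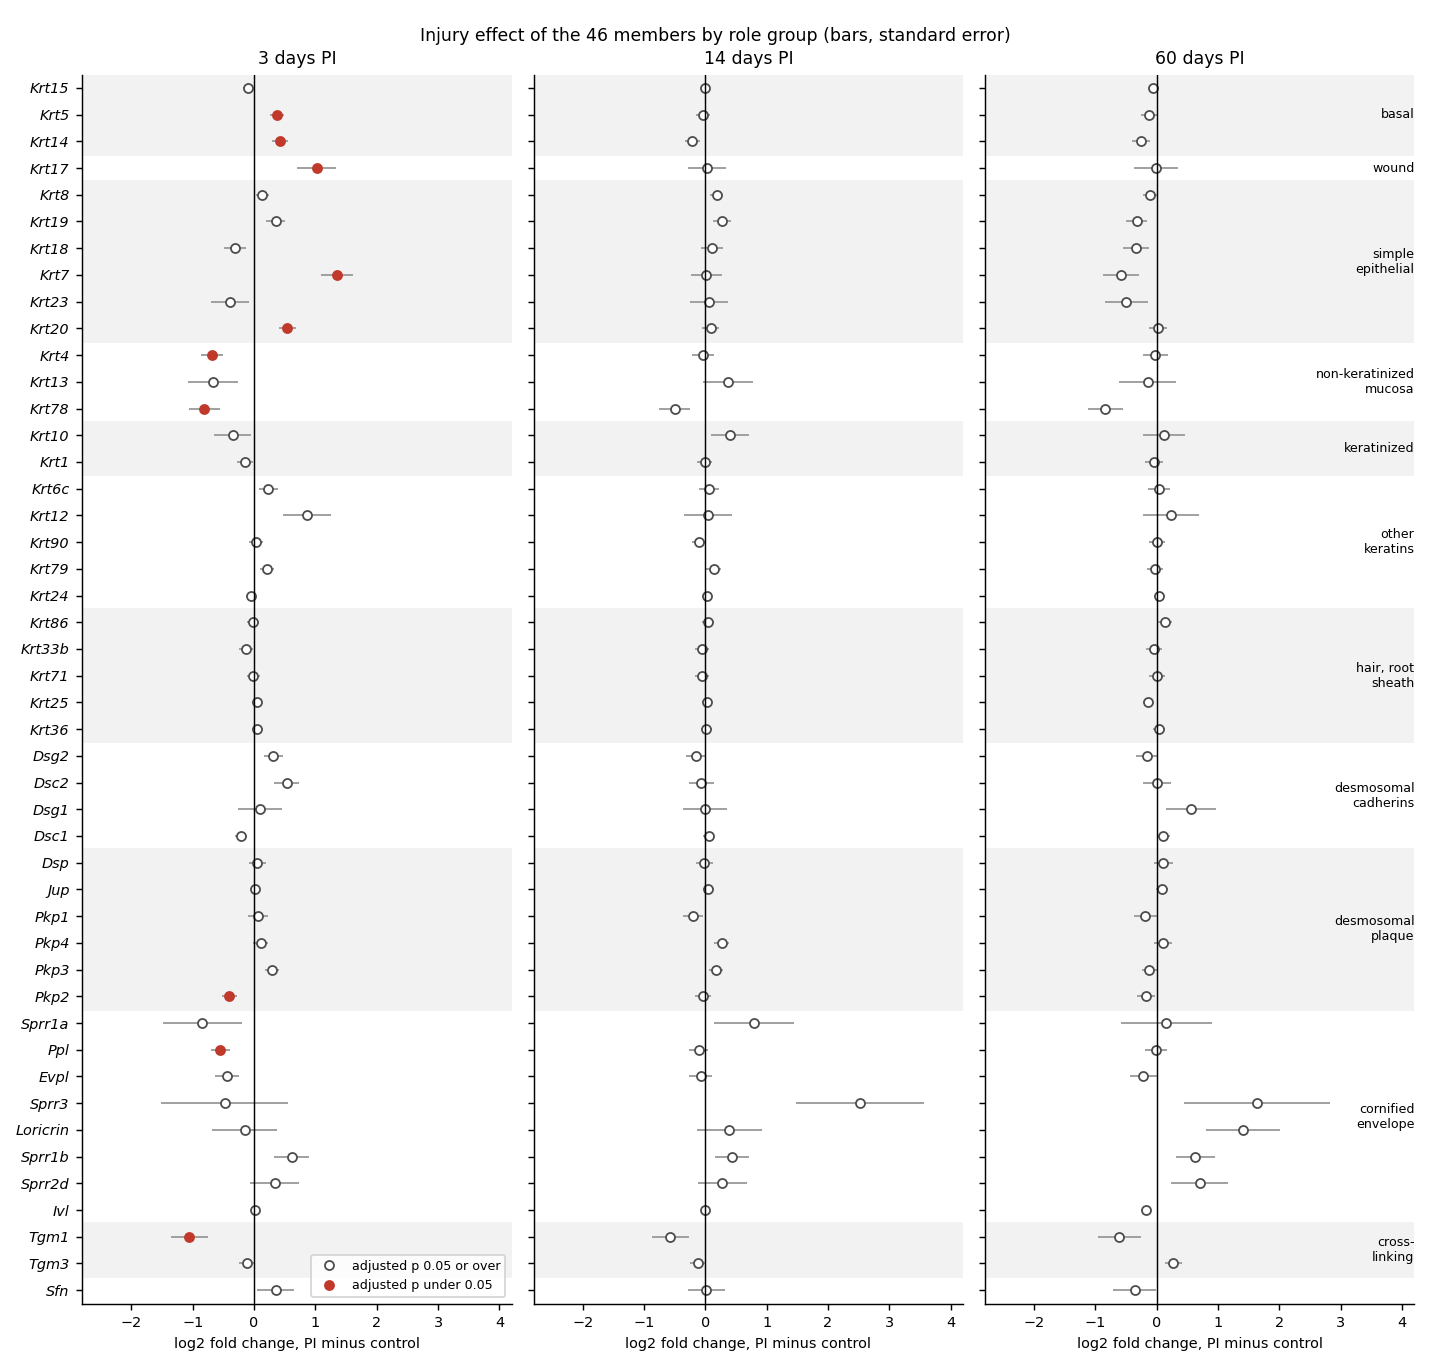
Log2 fold change of each of the 46 members, PI minus control, at 3, 14 and 60 days, with the standard error as a bar and members grouped by role. Filled points passed the test; there are 10 at 3 days, 5 on each side of 0, and 0 at 14 and 60 days.

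Of the 3 basal keratins, Krt5 and Krt14 rose at 3 days and Krt15 did not pass the test. Krt14, the type I partner of Krt5, read 13.61, 13.60, 13.78, 13.52 and 13.37 in the 3-day PI arrays, against 12.91, 13.43 and 13.11 in the 3-day controls. The rise was 1.34-fold (log2 0.43, SE 0.13, adjusted p 0.0154). Only control replicate 2, which was high for most members, reached into the PI range. Krt5 read 13.64, 13.58, 13.65, 13.57 and 13.49 in PI mucosa, against 13.04, 13.49 and 13.09 in controls. The lowest PI array (13.492) and the highest control (13.49) nearly met. The rise was 1.3-fold (log2 0.38, SE 0.11, adjusted p 0.0154). Krt15, the basal type I keratin of resting epithelium, read 13.997, 14.11, 14.04, 13.98 and 14.13 in PI mucosa, against 14.05, 14.29 and 14.12 in controls, a log2 fold change of -0.11. The calls of Krt14 and Krt5 rested on the low controls. Without control replicate 1 their adjusted p was 0.134 and 0.116, and without control replicate 3 it was 0.0626 and 0.0895.

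Krt17, a type I keratin induced at wound edges and under stress, was the single measured member of its group and rose at 3 days. It read 12.86, 12.33, 12.52, 12.37 and 11.45 in PI mucosa, against 10.92, 12.03 and 10.92 in controls. The rise was 2.03-fold (log2 1.02, SE 0.31, adjusted p 0.019). Control replicate 2 lay within the PI range and PI replicate 5 within the control range, while the other 4 PI arrays were over 1 log2 above the other 2 controls. The call was lost without control replicate 1 (adjusted p 0.117), without control replicate 3 (0.113) and when the 3-day arrays were fitted alone (0.0566).

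Among the 6 keratins of simple epithelium, Krt7 and Krt20 rose and 4 did not pass the test. Krt7, a type II keratin of ductal, glandular and transitional epithelium, had the largest rise of any member. Its signal was 12.04, 11.78, 12.20, 11.74 and 11.001 in the 3-day PI arrays, against 10.02, 11.01 and 10.18 in the 3-day controls. The rise was 2.55-fold (log2 1.35, SE 0.26, adjusted p 0.000455). The only contact between the groups was PI replicate 5 at 11.001 and control replicate 2 at 11.011. Krt7 passed the test at 3 days under every one of the 35 alternatives run, with log2 fold changes of 1.16 to 1.71. As given above, cultured VF fibroblasts also gave a Krt7 signal, within the mucosa range only in cultures from scar. The cells behind the rise were not tested.

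Krt20, known from intestinal and urothelial cells, read 6.38, 6.17, 6.29, 5.93 and 5.62 in PI mucosa, against 5.47, 5.64 and 5.49 in controls. The rise was 1.46-fold (log2 0.54, SE 0.13, adjusted p 0.00438). These signals lay close to the fibroblast range of 5.45 to 6.001, and only PI replicate 5 fell among the controls. Krt8 and Krt18, the primary pair of simple epithelia, did not pass the test. Krt8 read 13.23, 13.04, 12.75, 12.89 and 13.24 in PI mucosa, against 12.80, 13.05 and 12.84 in controls, and the groups overlapped. The log2 fold changes of Krt8, Krt18, Krt19 and Krt23 were 0.13, -0.31, 0.35 and -0.39, with adjusted p of 0.392, 0.226, 0.1 and 0.393.

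Of the 3 keratins of the upper layers of soft mucosa, Krt4 and Krt78 fell at 3 days. Krt4, the type II keratin of the suprabasal layers, read 12.04, 12.28, 12.23, 12.21 and 11.58 in PI mucosa, against 12.60, 13.06 and 12.59 in controls, with no overlap. The fold over control was 0.622 (log2 -0.68, SE 0.18, adjusted p 0.00707). Krt78, a type II keratin of stratified epithelium, read 6.69, 6.80, 6.64, 6.74 and 6.20 in PI mucosa, against 7.33, 7.68 and 7.27 in controls, again with no overlap. The fold over control was 0.569 (log2 -0.81, SE 0.25, adjusted p 0.0198). Krt13, the type I partner of Krt4, had a log2 fold change of -0.67 and did not pass the test (adjusted p 0.252), and its 3-day PI arrays ran between 10.33 and 12.25, against 12.08 to 13.01 in controls. Krt10 and Krt1, the pair of cornifying layers, did not pass either. Krt10 read 6.96, 6.82, 6.80, 6.88 and 5.91 in PI mucosa, against 7.20, 6.98 and 6.89 in controls, of which PI replicate 5 lay furthest down. Without control replicate 2 the adjusted p of Krt4 was 0.0567 and that of Krt78 was 0.0912, both above the threshold of 0.05.

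Of the 4 desmosomal cadherins and 6 plaque proteins only Pkp2 passed the test at 3 days. Pkp2, a plakophilin of simple epithelia and heart muscle, read 8.54, 8.43, 8.44, 8.29 and 8.26 in PI mucosa, against 8.98, 8.69 and 8.71 in controls, with no overlap. The fold over control was 0.756 (log2 -0.40, SE 0.13, adjusted p 0.0209). Every mucosa array was below every fibroblast array for Pkp2, whose fibroblast range was 9.24 to 9.78, and the call was lost without control replicate 1 (adjusted p 0.14). Dsg2, the desmoglein of basal and simple cells, read 11.001, 10.89, 11.27, 11.04 and 10.98 in PI mucosa, against 10.55, 10.88 and 10.72 in controls. The lowest PI array lay just above the highest control, but the log2 fold change of 0.32 did not pass the test (adjusted p 0.139), and that of Dsc2 was 0.53 (adjusted p 0.0606). Desmoplakin, the plaque protein that holds the keratin filaments, read 12.99, 13.04, 13.10, 12.98 and 13.15 in PI mucosa, against 12.84, 13.15 and 12.997 in controls. Its log2 fold change of 0.06 and that of plakoglobin, 0.01, were both close to 0. Dsg1, Dsc1, Pkp1, Pkp3 and Pkp4 had log2 fold changes of 0.09, -0.21, 0.07, 0.29 and 0.10.

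Of the 8 envelope proteins only the scaffold protein periplakin passed the test at 3 days. Ppl read 11.30, 11.55, 11.54, 11.48 and 11.38 in PI mucosa, against 11.78, 12.23 and 11.99 in controls, with no overlap. The fold over control was 0.681 (log2 -0.55, SE 0.16, adjusted p 0.0114). Envoplakin, its partner in the scaffold, had a log2 fold change of -0.44 and an adjusted p of 0.101. Tgm1, the membrane-bound transglutaminase that cross-links the envelope, had the largest fall of any member, and read 8.60, 8.75, 8.72, 8.27 and 7.34 in PI mucosa, against 9.12, 9.79 and 9.25 in controls. The fold over control was 0.482 (log2 -1.05, SE 0.30, adjusted p 0.0132). Tgm3, the second cross-linking enzyme, had a log2 fold change of -0.12 at a signal that lay below the fibroblast median. Ppl and Tgm1 lost the call without control replicate 2, at adjusted p of 0.0755 and 0.0784.

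The cross-linked substrates themselves did not pass the test at 3 days. Sprr1a, a small proline-rich protein, read 11.93, 12.00, 11.40, 11.69 and 8.89 in PI mucosa, against 11.63, 13.04 and 11.41 in controls, a log2 fold change of -0.84 (SE 0.65). PI replicate 5 was over 2 log2 below the other PI arrays. Sprr3, Sprr1b, Sprr2d, Loricrin and Ivl had log2 fold changes of -0.48, 0.61, 0.34, -0.16 and 0.02, with adjusted p between 0.116 and 0.898. Sfn, the epithelial 14-3-3 protein that acts in cell-cycle arrest, read 12.20, 11.93, 12.04, 11.89 and 10.80 in PI mucosa, against 11.26, 11.89 and 11.10 in controls, and the groups overlapped.

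**Figure D3:**
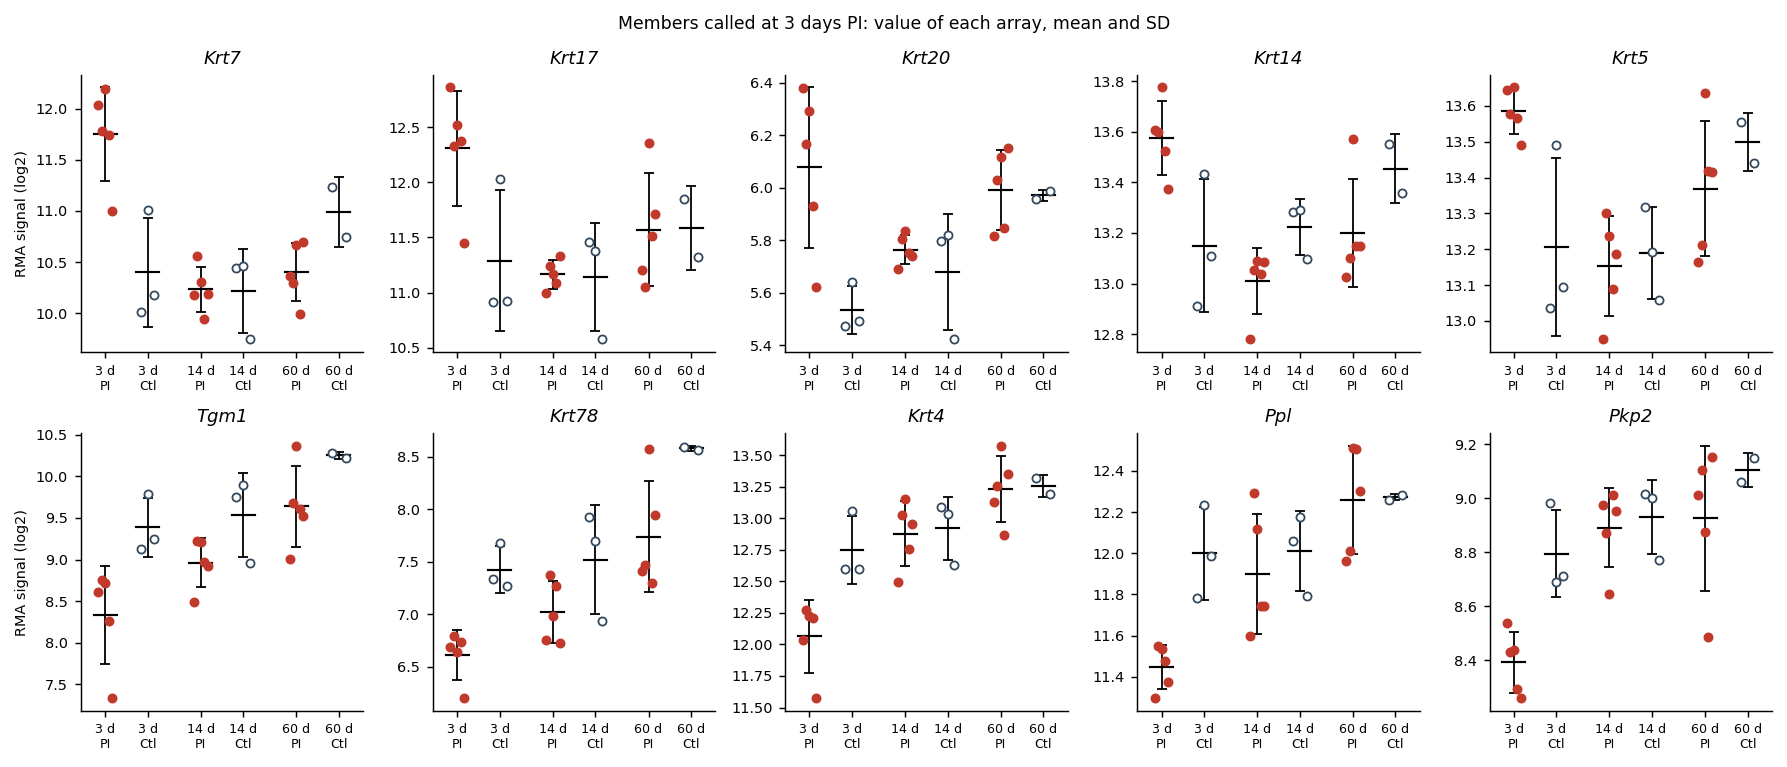
Log2 RMA signal in each mucosa array for the 10 members that passed the test at 3 days, PI arrays filled and control arrays open, with the group mean and SD. In the upper row the 3-day PI arrays sit above most 3-day controls, in the lower row the 3-day PI arrays sit below all 3-day controls, and at 14 and 60 days the groups lie close together or overlap for most genes.

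The 5 hair and inner root sheath keratins (Krt25, Krt33b, Krt36, Krt71 and Krt86) and the 5 other keratins had 0 calls at 3 days. For Krt86 the arrays read 7.71, 7.91, 7.63, 7.68 and 7.62 in PI mucosa, against 7.91, 7.57 and 7.72 in controls, all below the fibroblast range. Krt12, known from cornea, had a log2 fold change of 0.86 and an adjusted p of 0.116, and Krt24, Krt79 and Krt90 had -0.05, 0.21 and 0.03. Krt6c, a type II keratin close in sequence to Krt6a and Krt6b, which were not analysed here, read 12.21, 12.03, 12.01, 11.96 and 11.42 in PI mucosa, against 11.56, 12.01 and 11.51 in controls. The chosen probe set gave a log2 fold change of 0.23, another 0.58 and the remaining one, of lower mean signal, -0.85, and only that last one passed the test when all probe sets were fitted (adjusted p 0.00195). Probe sets of Krt6c therefore disagreed in direction, and the gene was taken as undetermined.

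Other genes of epithelial differentiation were read from 2 lists. At 3 days 26.5% of all genes passed limma's test, 14.5% higher and 12.0% lower. Of 18 further late differentiation genes measured of 29 listed (among them cornifelin, corneodesmosin, kallikreins and cystatins), 0 passed limma's test at 3 days, with a median log2 fold change of -0.38. At 14 and 60 days 0 passed as well, against 3.07% and 0.0492% of all genes. The list medians were then 0.21 and -0.02. Of 15 transcription factors and signalling genes of stratified epithelium measured of 21 listed, 2 fell at 3 days and 0 rose. These were Klf4, a factor that mice need for terminal differentiation and skin barrier, with -0.71 (SE 0.21, adjusted p 0.0137), and Grhl1, a grainyhead-like factor of surface epithelia, with -0.55 (SE 0.16, adjusted p 0.0124). The related Klf5 (-0.08, adjusted p 0.741) and Grhl3 (-0.27, adjusted p 0.547) did not pass. A fall in 2 of 15 is near the share of all genes that fell. Of 5 airway cilia genes measured of 7 listed, 3 rose at 3 days (Tekt1 1.52, Rsph1 0.94 and Foxj1 0.83), with a mean signal per array of 9.58 to 10.16 in PI and 8.96 to 9.23 in control mucosa. Among 5 gland genes, 1 fell, the lactoperoxidase gene Lpo (-1.32).

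At 14 and 60 days 0 members passed limma's test, against 3.07% and 0.0492% of all genes. At an unadjusted p under 0.05 there were 2 members at 14 days and 3 at 60 days, and a lognormal-normal model called 0 at both times. Markers of other cells still differed at 14 days. Of 5 cilia genes 3 rose (Tekt1, Rsph1 and Dnai1), with a mean signal per array of 9.89 to 10.36 in PI and 9.04 to 9.17 in control mucosa. Of 7 fibroblast markers 3 rose, the collagen genes Col1a1, Col1a2 and Col3a1 (12.38 to 12.59 over all 7 in PI and 12.14 to 12.24 in control mucosa). The muscle gene Myh2 and the endothelial gene Pecam1 also rose, by 1.51 and 0.68 log2. At 60 days none of these markers passed limma's test, with a lowest adjusted p of 0.0836 (Myh2), and their part in the changes of members with time was not tested. Krt7, Krt17 and Krt5, which had been high at 3 days, had log2 fold changes of 0.02, 0.03 and -0.04 at 14 days and -0.58, -0.02 and -0.13 at 60 days. Krt7 read 10.18, 10.56, 10.30, 9.95 and 10.19 at 14 days PI, against 10.44, 10.47 and 9.75 in controls, and 10.37, 10.30, 10.66, 9.996 and 10.69 at 60 days PI, against 11.23 and 10.74 in controls. The 60-day PI arrays all lay below both controls, without passing the test (adjusted p 0.583). Krt14 read 12.78, 13.06, 13.09, 13.04 and 13.09 at 14 days PI, against 13.28, 13.29 and 13.10 in controls, and 13.03, 13.10, 13.57, 13.15 and 13.15 at 60 days PI, against 13.55 and 13.36 in controls. At 14 days every PI array of Krt14 was below every control, with a log2 fold change of -0.21 and an adjusted p of 0.554.

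Krt17 read 10.996, 11.24, 11.17, 11.09 and 11.33 at 14 days PI, against 11.46, 11.38 and 10.58 in controls, and 11.20, 11.05, 12.36, 11.52 and 11.71 at 60 days PI, against 11.85 and 11.32 in controls, with overlap at both times. Krt5 read 12.95, 13.30, 13.24, 13.09 and 13.19 at 14 days PI, against 13.32, 13.19 and 13.06 in controls, and 13.17, 13.21, 13.64, 13.42 and 13.41 at 60 days PI, against 13.56 and 13.44 in controls. For Krt20 the arrays gave 5.69, 5.81, 5.84, 5.75 and 5.74 at 14 days PI, against 5.80, 5.82 and 5.42 in controls, and 5.82, 6.03, 6.12, 5.85 and 6.15 at 60 days PI, against 5.96 and 5.99 in controls. None of the 3 genes separated the groups at 14 or 60 days. Krt15 and Krt8 did not pass the test at the later times either. Krt15 lay between 14.05 and 14.38 in all PI arrays and between 14.13 and 14.36 in all control arrays of these later times, and Krt8 lay between 12.85 and 13.14 in PI arrays and between 12.75 and 13.15 in controls.

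Of the members that were low at 3 days, Krt4 had log2 fold changes of -0.05 and -0.02 at 14 and 60 days and Ppl -0.11 and -0.01, while those of Krt78 (-0.501 and -0.84) and Tgm1 (-0.57 and -0.61) were larger in size and did not pass the test. Krt4 read 12.49, 13.02, 13.15, 12.76 and 12.95 at 14 days PI, against 13.09, 13.04 and 12.63 in controls, and 13.13, 13.25, 13.57, 12.87 and 13.35 at 60 days PI, against 13.32 and 13.19 in controls. Ppl read 11.60, 12.30, 12.12, 11.74 and 11.74 at 14 days PI, against 12.06, 12.18 and 11.79 in controls, and 11.96, 12.01, 12.51, 12.51 and 12.31 at 60 days PI, against 12.26 and 12.28 in controls. Both overlapped the controls at each time. Krt78 read 6.75, 7.38, 6.98, 7.27 and 6.72 at 14 days PI, against 7.93, 7.70 and 6.94 in controls, with an adjusted p of 0.427. At 60 days Krt78 read 7.41, 7.47, 8.57, 7.30 and 7.94 in PI mucosa, against 8.60 and 8.56 in controls, with an adjusted p of 0.341, and 4 of 5 PI arrays lay below both controls. Tgm1 followed the same order without passing the test. It read 8.49, 9.22, 9.21, 8.97 and 8.92 at 14 days PI, against 9.75, 9.90 and 8.96 in controls, and 9.01, 9.69, 10.37, 9.61 and 9.53 at 60 days PI, against 10.28 and 10.22 in controls. Pkp2 read 8.97, 8.87, 8.65, 9.01 and 8.95 at 14 days PI, against 9.02, 9.0 and 8.77 in controls, and 9.01, 9.10, 8.88, 8.48 and 9.15 at 60 days PI, against 9.06 and 9.15 in controls, with overlap at both times.

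Whether the injury effect itself changed with time was tested as a difference of log2 fold changes. The effect was lower at 14 than at 3 days for 2 members, with a difference of -1.33 log2 (SE 0.36, adjusted p 0.0247) for Krt7 and of -0.64 log2 (SE 0.18, adjusted p 0.0292) for Krt14, and 7.90% of all genes passed this test. It was lower at 60 than at 3 days for the same 2 members, with a difference of -1.93 log2 (SE 0.39, adjusted p 0.00201) for Krt7 and of -0.68 log2 (SE 0.19, adjusted p 0.0213) for Krt14, where 13.4% of all genes passed. Between 60 and 14 days 0 members passed limma's test (2 at an unadjusted p under 0.05), and 0.0774% of all genes did. The 60-day difference of Krt7 passed under all 32 alternatives, whereas both 14-day differences were lost without any 1 of 14-day control replicates 1 and 2 and 3-day control replicates 1 and 3, with adjusted p for Krt7 of 0.0763 and 0.0786 without the 14-day controls and of up to 0.0948 without the 3-day controls. That of Krt14 at 14 days was also lost without 14-day PI replicate 1 (0.0507) and without 3-day PI replicate 3, and reached 0.115 at most. The 60-day difference of Krt14 was lost without 3-day control replicate 1 (0.0789), 3-day control replicate 3 (0.0534) or 60-day control replicate 1 (0.137). For Krt17, Krt5, Krt4, Ppl and Tgm1 the 60-day difference was -1.04, -0.51, 0.66, 0.54 and 0.44, with adjusted p of 0.163, 0.0533, 0.116, 0.143 and 0.595, so a change of their effect with time was not shown.

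Within injured mucosa, 19 of 46 members (41.3%) differed between the 3 PI time points by limma's F test, against 38.4% of all genes. Members fell into 3 time courses. Krt5, Krt7, Krt14, Krt17 and Dsg2 were highest at 3 and lowest at 14 days. Krt4, Krt13, Krt23, Krt78, Pkp2, Evpl, Ppl, Loricrin, Sprr1a, Sprr3, Tgm1 and Tgm3 were lowest at 3 and highest at 60 days, and Pkp3 and Sprr2d were lowest at 14 and highest at 60 days. By role these were 3 of 3 keratins of non-keratinized mucosa, 6 of 8 envelope proteins, both transglutaminases, 2 of 3 basal keratins, 2 of 6 simple keratins, 2 of 6 plaque proteins, 1 of 4 cadherins and Krt17. In control mucosa 0 members passed limma's test across the same ages (5 at an unadjusted p under 0.05), and 0.0141% of all genes did, on 8 arrays against 15 in PI mucosa. Of the 19 calls in PI mucosa, 12 held when each of the 23 arrays was left out in turn. Sprr1a lost its call without 3-day PI replicate 5 (adjusted p 0.0695), Loricrin without any 1 of 60-day PI replicates 2, 3 and 5 (up to 0.0857), and Dsg2 without 3-day PI replicate 3 or 4 or 14-day PI replicate 1 or 4 (up to 0.091). The calls of Krt23, Pkp3, Sprr2d and Tgm3 were each lost on leaving out any 1 of 15, 9, 16 and 8 of the arrays.

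The members that climbed between 3 and 60 days were mostly also higher in the older controls. For 10 of the 12, the control mean was higher at 60 than at 3 days too, the exceptions being Loricrin and Tgm3. This was not particular to the members that climbed. Of all 46 members, only Dsc1, Krt33b, Krt36, Krt86, Loricrin, Sprr1b and Tgm3 had a lower control mean at 60 days. The share over all genes was not computed, and the 60-day control mean rests on 2 arrays. The mean of Krt4 was 12.06, 12.88 and 13.23 at 3, 14 and 60 days PI, and 12.75, 12.92 and 13.25 in the controls of those times, a 60-day minus 3-day difference of 1.17 in PI and 0.504 in control mucosa. That of Krt78 was 6.61, 7.02 and 7.74 in PI mucosa and 7.43, 7.52 and 8.58 in controls, a 60-day minus 3-day difference of 1.13 in PI and 1.15 in control mucosa. That of Tgm1 was 8.33, 8.96 and 9.64 in PI mucosa and 9.39, 9.53 and 10.25 in controls. The difference between such a change in PI mucosa and that in controls is the test of effect by time given above, which 0 of the 12 passed in limma.

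Sprr3 and Loricrin varied widely between arrays of 1 group. Sprr3, an envelope protein of oral and esophageal epithelium, was chosen for its spread after its values were seen, as were Loricrin, Krt13, Sprr2d and Evpl in the plot of late members. Sprr3 read 6.40, 6.89, 5.87, 6.94 and 5.32 at 3 days PI, against 5.72, 9.01 and 5.57 in controls, and 7.30, 9.79, 10.62, 6.83 and 9.69 at 14 days PI, against 6.64, 7.19 and 5.14 in controls. At 60 days it read 8.79, 11.63, 12.15, 7.35 and 11.18 in PI mucosa, against 7.79 and 9.37 in controls. The groups overlapped at each time, and the 14-day fold of 5.74 (log2 2.52, SE 1.04) did not pass the test (adjusted p 0.26). Loricrin, the bulk protein of the skin envelope, was between 6.44 and 6.76 at 3 days PI, against 6.60 to 6.90 in controls. At 14 days it read 6.89, 6.92, 7.41, 6.93 and 6.89 in PI mucosa, against 6.54, 6.77 and 6.55 in controls, and every PI array lay above every control, with a log2 fold change of 0.39 that did not pass the test (adjusted p 0.903). At 60 days PI it read 6.61, 9.66, 9.78, 6.48 and 8.43, against 6.78 and 6.78 in controls, so that 3 PI arrays were above both controls and 2 were below them. Its 60-day log2 fold change of 1.41 (SE 0.60) did not pass the test (adjusted p 0.486).

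The same 3 arrays of the 60-day PI group, replicates 2, 3 and 5, were the 3 highest for Sprr1a, with 12.73, 13.58, 13.97, 11.55 and 13.69 against 12.86 and 13.04 in controls. The order was seen first in Loricrin and Sprr3 and is given as a description, resting on the labels of the 60-day arrays. Replicates 2, 3 and 5 all lay above replicates 1 and 4 in 19 of 46 members (41.3%) and in 21.8% of all genes. Among the 19 were Krt1, Krt33b, Krt71 and Krt90, whose signals were near or below the fibroblast level. Tgm1, Evpl and Ppl, which also climbed with time, did not show it. Krt10 read 6.998, 8.03, 7.59, 6.10 and 7.26 at 60 days PI, against 6.98 and 7.17 in controls, and Dsg1, a desmoglein of upper layers named here after its values were seen, read 5.49, 6.92, 7.69, 6.17 and 6.58, against 5.87 and 6.15. At 14 days Sprr1a read 12.00, 13.02, 13.12, 11.88 and 12.78 in PI mucosa, against 12.27, 12.48 and 10.56 in controls, and Krt10 read 7.42, 7.04, 7.16, 7.61 and 7.38, against 7.22, 7.10 and 6.44. Since each array pools 4 rats, a difference between arrays cannot be placed in single animals.

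**Figure D4:**
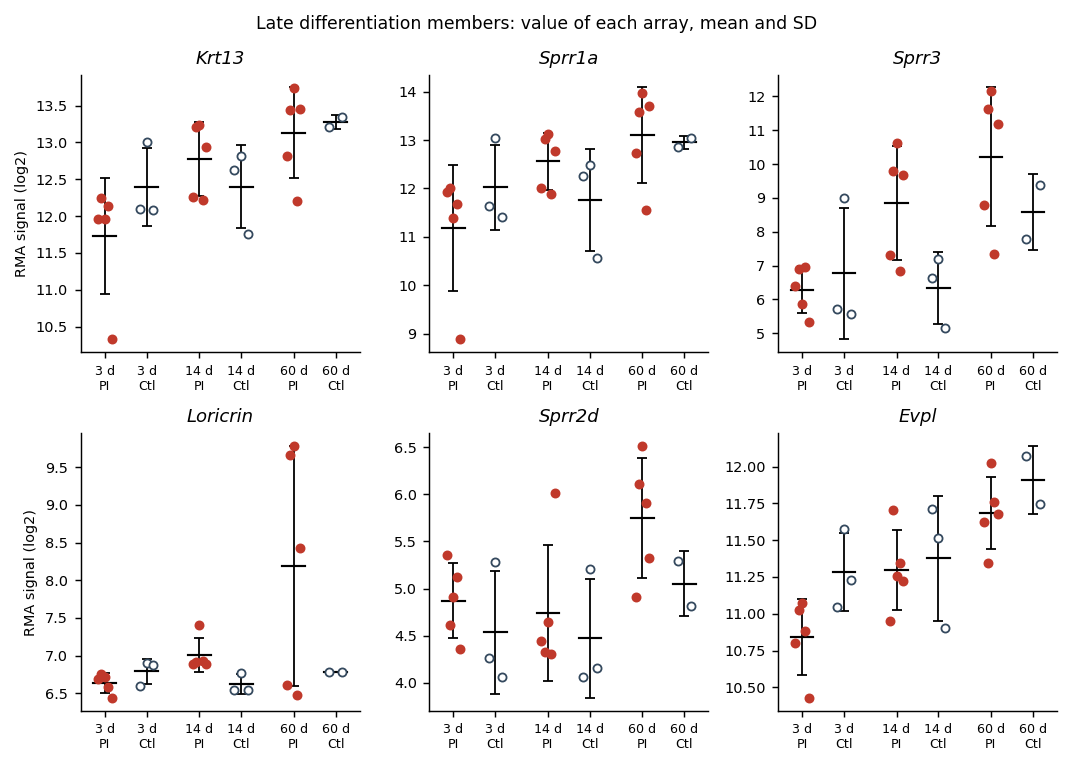
Log2 RMA signal in each mucosa array for Krt13, Sprr1a, Sprr3, Loricrin, Sprr2d and Evpl, PI arrays filled and control arrays open, with the group mean and SD. At 60 days PI, Loricrin divides into 3 arrays between 8.43 and 9.78 and 2 arrays at 6.48 and 6.61, against 6.78 in both controls.

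The members of highest signal in the remaining role groups did not pass the test at the later times. Dsg2 read 10.34, 10.82, 10.63, 10.48 and 10.69 at 14 days PI, against 10.86, 10.67 and 10.71 in controls, and 10.499, 10.45, 10.68, 11.34 and 10.62 at 60 days PI, against 10.88 and 10.88 in controls. Dsp lay between 12.83 and 13.22 at 14 days PI, against 12.99 to 13.06 in controls, and read 12.95, 12.97, 13.22, 13.76 and 13.11 at 60 days PI, against 13.03 and 13.16 in controls. PI replicate 4 of 60 days was the highest array for both Dsg2 and Dsp. Sfn read 11.08, 11.63, 11.53, 11.13 and 11.66 at 14 days PI, against 11.67, 11.75 and 10.76 in controls, and 11.34, 11.92, 12.37, 11.16 and 11.90 at 60 days PI, against 12.15 and 12.04 in controls. Krt6c lay between 11.58 and 12.44 in the PI arrays of these times, against 11.56 to 12.16 in controls, and Krt86 between 7.55 and 7.96, against 7.56 to 7.71. The groups overlapped for all 5 of these genes at both times.

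The start regions of members that climbed together in PI mucosa were read from RefSeq (build GRCr8), which held a promoter window of 250 bases before to 50 after the gene start for 34 of 46 members. The windows below are shown because Sprr1a, Loricrin and Krt4 climbed between 3 and 60 days PI and hold the letters TGANTCA, the core bound by AP-1 factors, which are known to act on envelope genes; Sprr1b, a neighbour of Sprr1a on the same chromosome whose signal stayed near the fibroblast level, is shown beside them. TGANTCA was searched on both strands and is printed in capitals. All 4 genes lie on the minus strand, and each window is written 5′ to 3′ along the gene, at chr2:180752576-180752875 for Sprr1a, chr2:180706306-180706605 for Sprr1b, chr2:180256523-180256822 for Loricrin and chr7:134930664-134930963 for Krt4.
Sprr1a: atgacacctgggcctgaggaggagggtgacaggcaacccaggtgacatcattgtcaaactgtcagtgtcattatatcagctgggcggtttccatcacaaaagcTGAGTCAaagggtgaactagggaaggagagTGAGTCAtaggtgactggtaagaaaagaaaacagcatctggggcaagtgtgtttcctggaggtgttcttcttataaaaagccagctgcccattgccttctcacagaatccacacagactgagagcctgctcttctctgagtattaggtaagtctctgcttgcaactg
Sprr1b: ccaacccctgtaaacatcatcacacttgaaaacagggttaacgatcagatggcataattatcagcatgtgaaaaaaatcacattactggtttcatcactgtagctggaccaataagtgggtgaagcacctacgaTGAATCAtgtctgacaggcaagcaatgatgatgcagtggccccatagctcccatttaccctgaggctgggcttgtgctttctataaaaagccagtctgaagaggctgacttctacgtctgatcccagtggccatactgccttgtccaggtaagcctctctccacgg
Loricrin: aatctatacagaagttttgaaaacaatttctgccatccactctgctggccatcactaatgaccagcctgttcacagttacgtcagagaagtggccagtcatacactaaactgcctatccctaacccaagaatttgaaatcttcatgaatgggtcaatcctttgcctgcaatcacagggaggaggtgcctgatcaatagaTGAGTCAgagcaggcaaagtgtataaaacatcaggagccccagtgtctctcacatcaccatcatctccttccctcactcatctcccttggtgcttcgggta
Krt4: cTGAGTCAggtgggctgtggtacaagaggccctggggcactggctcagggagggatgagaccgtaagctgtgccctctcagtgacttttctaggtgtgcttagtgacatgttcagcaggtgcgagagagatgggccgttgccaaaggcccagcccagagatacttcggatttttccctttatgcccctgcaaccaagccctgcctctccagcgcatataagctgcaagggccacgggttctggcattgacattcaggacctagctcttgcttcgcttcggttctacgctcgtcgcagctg
Sprr1a held TGANTCA with its first base at -147 and at -117, Sprr1b at -116, Loricrin at -51 and Krt4 at -249, counted from the gene start. Sprr1a, Sprr1b and Loricrin each also held TATAAA, searched on both strands and not overlapping TGANTCA, and Krt4 did not. TGANTCA was present in 6 of 34 member windows (17.6%), the others being Krt8 and Sfn, against 7.33% of 27457 windows of that length, and TATAAA in 32.4%, against 14.3%. Sprr1b held the letters and passed none of the tests in the main fit, though some alternative fits called it higher at 3 days. Krt23, Krt78, Ppl, Tgm1 and Tgm3 climbed without holding the letters, and Evpl, Krt13, Pkp2 and Sprr3 climbed but had no window. A match is therefore a description of the window only.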

How the data were processed

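RNA of VF mucosa pools and of cultured VF fibroblasts was hybridised to 36 rat whole-genome arrays. The values deposited by the authors were log2 signals after RMA (background correction, quantile normalisation and probe summary over all 36 arrays together), per the labels made with the affy package of R. They ran from 2.724 to 14.743, and the sorted values of any 2 arrays differed by at most 0.03, so each value is relative to the other genes of its array and a shift of all genes cannot be seen. Array number limits the precision.

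Of 31099 probe sets, 57 control sets were left out. Symbols came from the platform annotation, updated through the RefSeq gene table. Of the rest, 20826 probe sets had 1 symbol, 436 several and 9780 none. Where a gene had several probe sets, that with the median of the mean signals over the 23 mucosa arrays was used (the larger of the middle pair for an even number).

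A linear model with 6 group means was fitted to the 23 mucosa arrays with limma 3.58.1 in R 4.3.3 (lmFit, eBayes), and Benjamini-Hochberg adjustment ran over all 14217 genes. PI was compared with control at each time, effects between times, and each condition across times by the moderated F test. The study's methods give fewer PI and more control arrays at 60 days than the labels, with the same total, and the labels were followed. Whether an array labelled 60-day PI was a control was not tested, so all 60-day results rest on the labels. Replicates were numbered by the labels. Alternatives were other probe sets, limma-trend, array weights, quantile normalisation over mucosa arrays, no 30% of genes of lowest mean, 1 time point or condition alone, pooled controls, a replicate block, each array left out, 3 arrays left out together, and a lognormal-normal model after the study's own (20 iterations, posterior over 0.95). The fits were tested on simulated data. Values in every array were given for members called in an injury comparison (up to 6 each way) and for the member of highest mean in each role group, and of other lists up to 3 called genes of largest change were named. The members and lists were chosen with earlier results of these data known. Promoter windows were scanned in Python 3.11.15 and figures drawn with matplotlib 3.10.9.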

Additional observations from a re-analysis of the deposited data

Results flagged for a closer look

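In some groups 1 array lay far from the other 4, by Dixon's test at 95%, which chance passes in about 1 of 20 groups (7 of 57 groups here). In the 3-day PI group replicate 5 was lowest for Krt10 (5.91, next array 6.80), Krt78 (6.20, next 6.64), Sfn (10.80, next 11.89) and Sprr1a (8.89, next 11.40). Replicate 1 was lowest at 14 days PI for Krt14 (12.78, next 13.04). At 60 days PI, replicate 3 was highest for Krt14 (13.57, next 13.15) and replicate 4 for Dsg2 (11.34, next 10.68).

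The injury effect of Krt7 and Krt14 differed between times by limma's test of the difference. For Krt7 it was lower by -1.33 log2 (adjusted p 0.0247) at 14 than at 3 days, and by -1.93 (0.00201) at 60 than at 3 days. For Krt14 the differences were -0.64 (0.0292) and -0.68 (0.0213).

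In the 13 cultured fibroblast arrays, which entered no test, 5 members read above all 8 control mucosa arrays. The share of all genes that did so was not computed. The lowest fibroblast array was at 6.18 for Krt25, 7.995 for Krt86, 7.13 for Krt90, 9.24 for Pkp2 and 7.27 for Tgm3, against a highest control mucosa array of 6.02, 7.91, 6.82, 9.15 and 7.20 for these genes.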

How the results depend on the processing

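The 14 fold changes that passed an injury comparison kept their direction under all alternatives run, while the 3 probe sets of Krt6c differed in direction. Leaving out each array in turn gave 6 to 14 members called at 3 days (10 with all arrays), 0 at 14 and 60 days, 14 to 22 across time in PI mucosa (19), 0 in control mucosa, and 0 to 3 (2), 1 to 7 (2) and 0 (0) for the effect at 14 against 3, 60 against 3 and 60 against 14 days. The fits with 6 and 14 members at 3 days called 18.8% and 34.4% of all genes. With 3 arrays left out together (replicate 5 of 3 days PI, replicate 4 of 60 days PI and replicate 3 of the 14-day controls), 19 members passed at 3 days, and 5 and 9 for the effect at 14 and 60 against 3 days. At 3 days 38.4% of all genes passed in that fit. Array weights gave 23 at 3 days, 5 at 14 days, 34 across PI time, 15 across control time, and 15 and 13 for the effect at 14 and 60 against 3 days, while calls over all genes at 3 days also grew to 58.7%. With the controls of the 3 ages pooled, 16 passed at 3 days and 3 at 60 days (Loricrin, Sprr2d and Sprr3, all higher). Of all genes 39% passed at 3 days in that fit. The lognormal-normal model called 4 at 3 days (Krt7, Krt78, Ppl and Dsc2), and 15% of all genes. The causes were not tested. A replicate block left 10 calls at 3 days, 6 higher and 4 lower, with Krt78 lost (adjusted p 0.0613) and Sprr1b gained. It called 24.6% of all genes at 3 days, and 17 members across PI time. The deviations of same-numbered arrays correlated between -0.13 and 0.31, so the numbers were not taken as pairs. Krt20 was among the genes removed by the filter on low means. The other alternatives kept every count within 1.5 times. Shares of all genes are given here for 3 days only. The counts for the other comparisons are therefore not set against all genes and describe the members only. With 2 controls, the 60-day groups limit what the test can call, and signals near the fibroblast level may lie at background.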
